A study of Arabidopsis thaliana with 14 samples.

Results

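The 10 genes studied belong to the class IV homeodomain-leucine zipper family (HD-ZIP IV) of Arabidopsis thaliana and were followed in silique RNA: FWA (AT4G25530), HDG3 (AT2G32370), HDG8 (AT3G03260), HDG9 (AT5G17320), HDG10 (AT1G34650), ATML1 (AT4G21750), PDF2 (AT4G04890), HDG11 (AT1G73360), HDG12 (AT1G17920) and HDG2 (AT1G05230). They were taken by gene identifier and make up 10 of the 27394 genes counted and 10 of the 16 HD-ZIP IV genes looked for. The study asked how 5-Azacytidine, a chemical that blocks DNA methyltransferases, changes the seeds of jas-3 plants, whose self-pollinated siliques hold triploid seeds beside diploid ones because part of the pollen is diploid. All 14 libraries came from ecotype Col-0 plants under a 16 h photoperiod and each held RNA of 3 siliques taken 6 to 9 days after anthesis. The groups were WT (2 libraries), untreated jas-3 (2), jas-3 exposed to the solvent DMSO (3), and 2 generations of Aza1, a line descended from a 5-Azacytidine-treated jas-3 plant. The earlier generation is called Aza1 eM2 (3 libraries) and the later one Aza1 eM3 (4 libraries), while the deposited labels read eM1 and eM2 for them. All groups except WT are labelled as carrying jas-3. Aza1 is a single treated line, so the spread between its libraries is not a spread between treated lines.

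HD-ZIP IV proteins are plant transcription factors with a homeodomain, a leucine zipper and a lipid-binding START domain, and most act in the outermost cell layer. ATML1 and PDF2 specify epidermal identity in embryo and shoot and bind an 8-base element called the L1 box, HDG11 and HDG12 limit trichome branching, and HDG2 promotes stomatal development. FWA, HDG8 and HDG9 are known as maternally expressed imprinted genes of the endosperm, the tissue that feeds the embryo, and HDG3 as a paternally expressed one. FWA is silent in other tissues while repeats at its start are methylated, and its loss of methylation there delays flowering. Reads were not assigned to a parent here, so the values below are totals over both parental copies.

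The start of a gene is where its methylation and regulation are usually studied, and 3 start regions are shown: FWA for its repeats, HDG3, the most abundant member in jas-3, for a transposable element, and HDG10 for an L1 box. Each is the 300 bases before the annotated start, read on the strand of the gene from the TAIR10.1 sequence of RefSeq, whose 5 nuclear chromosomes have the lengths used in the TAIR10 files. Capitals mark the copies of a 38-base direct repeat in FWA (chr4:13038060-13038359, plus strand), the bases of an ATREP10D transposable element in HDG3 (chr2:13740578-13740877, plus strand), and an L1 box in HDG10 (chr1:12692695-12692994, plus strand).
FWA: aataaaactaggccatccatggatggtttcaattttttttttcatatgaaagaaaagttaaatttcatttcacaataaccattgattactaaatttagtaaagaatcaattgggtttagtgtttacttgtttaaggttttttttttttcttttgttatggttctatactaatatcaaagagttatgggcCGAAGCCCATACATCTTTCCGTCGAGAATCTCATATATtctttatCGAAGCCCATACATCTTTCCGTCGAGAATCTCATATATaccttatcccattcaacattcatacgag
HDG3: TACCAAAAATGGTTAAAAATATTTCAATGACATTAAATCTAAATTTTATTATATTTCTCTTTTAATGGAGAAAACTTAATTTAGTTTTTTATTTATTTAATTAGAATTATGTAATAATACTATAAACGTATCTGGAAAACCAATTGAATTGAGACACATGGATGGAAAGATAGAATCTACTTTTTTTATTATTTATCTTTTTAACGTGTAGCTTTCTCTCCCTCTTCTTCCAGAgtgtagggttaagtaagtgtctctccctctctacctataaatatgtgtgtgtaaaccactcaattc
HDG10: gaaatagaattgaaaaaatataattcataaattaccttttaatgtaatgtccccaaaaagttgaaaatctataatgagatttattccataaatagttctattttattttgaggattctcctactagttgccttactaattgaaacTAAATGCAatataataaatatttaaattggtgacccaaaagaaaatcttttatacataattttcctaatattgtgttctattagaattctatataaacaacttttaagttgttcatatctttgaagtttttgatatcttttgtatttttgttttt

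The FWA copies lie at chr4:13038249-13038286 and chr4:13038294-13038331, and a second pair of 63 bases lies at chr4:13038396-13038458 and chr4:13038607-13038669, past the start at position 13038360 and partly within exons 1 and 2 of its 10 exons. Beside the 63-base pair, at a spacing of 211 and 210 bases, lie shorter exact pairs. They are 26 bases (chr4:13038335-13038360 and chr4:13038546-13038571) and 24 bases (chr4:13038459-13038482 and chr4:13038669-13038692). The first copy of the 26-base pair begins inside the region shown and is not in capitals. The FWA region held 7 CG dinucleotides, the sites that methyltransferases copy at cell division. The median of 26894 such regions was 6, and 40.4% of them held at least as many as FWA. HDG3 had 2 CG and HDG10 had 0. A transposable element annotated in the files covered part of the region in 5 of the 10 genes, against 15.6% of the 26894 genes. It filled 234 of 300 bases in HDG3 (ATREP10D), 215 in HDG11 (ATREP11) and all 300 in HDG8 (HELITRONY3), HDG9 (ATREP10D and HELITRONY3) and HDG2 (ATREP10B). FWA, HDG10, ATML1, PDF2 and HDG12 had none in it. The L1 box, searched as TAAATGCA and TAAATGTA on both strands, was present in HDG10 and HDG2, against 5.51% of all such regions, and a match of letters is not a binding site. Exons of all 10 genes were unique in the genome at a window of 100 bases, so the members do not share reads of that length.

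**Figure D1:**
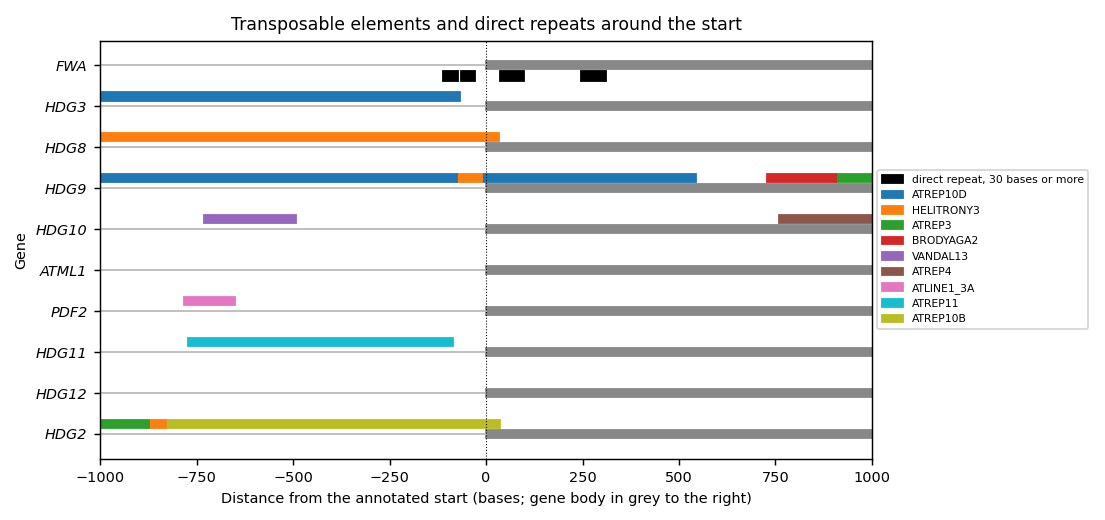
Map of the 1000 bases on each side of the annotated start of the 10 genes (x axis, distance in bases; grey bars, gene body), with transposable elements as coloured bars and FWA direct repeats of 30 bases or more in black. Elements lie in the 300 bases before the start of HDG3, HDG8, HDG9, HDG11 and HDG2, and FWA has repeats on both sides of its start.

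The libraries held 40526464 to 43974069 gene counts. The gene carrying the jas-3 allele, JASON (AT1G06660), had 14 counts in both WT libraries and 80 to 225 in the 12 others, so its level does not fall in the libraries labelled jas-3 and does not serve as a check of the labels. The libraries differed in the share of counts taken by 9 seed storage genes (cruciferins and napins, which accumulate as seeds mature): 37.2% to 43.1% in WT, 8.03% to 17.2% in jas-3, 10.7% to 22.8% in DMSO, 21.96% to 31.0% in Aza1 eM2 and 15.0% to 27.8% in Aza1 eM3. Marker genes of the fruit wall were present in every group, while 3 of 12 endosperm markers (MINI3, PHE1 and AGL36) were at 0 in both WT libraries. In whole siliques, fewer cells of a type and less RNA per cell cannot be told apart.

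Levels between genes are given as RPKM, the count scaled for exon length and for the total gene count of the library. The RPKM of the 10 genes summed to 56.9 ± 6.18 in WT (SD, n = 2), 265 ± 53.4 in jas-3 (n = 2), 219 ± 79.1 in DMSO (n = 3), 104 ± 15.1 in Aza1 eM2 (n = 3) and 178 ± 34.6 in Aza1 eM3 (n = 4). HDG3 had an RPKM of 0.18 ± 0.18 in WT and ranked sixth there, and it was the highest of the 10 in jas-3 (147 ± 22.4), DMSO (123 ± 58.4) and Aza1 eM3 (95.1 ± 19.2). It made up 53.6% to 57.5% of the summed RPKM in jas-3, 19.99% to 31.9% in Aza1 eM2 and 0.0843% to 0.587% in WT. PDF2 (28.5 ± 2.64 in WT and 37.0 ± 5.42 in Aza1 eM2) was the highest in the other two groups, ahead of ATML1 in WT (19.4 ± 1.77) and of HDG3 in Aza1 eM2 (25.8 ± 6.88). In WT the ranges of PDF2, ATML1, HDG2 and HDG12 did not overlap each other, while those of HDG3, HDG8 and HDG9 did. FWA stayed a low member wherever it was detected, with a mean RPKM of 5.10 ± 1.70 for jas-3, 3.24 ± 2.12 for DMSO, 2.73 ± 0.93 for Aza1 eM3 and 0.32 ± 0.18 for Aza1 eM2. HDG10 was the lowest of the 10 in those 4 groups, with means of 0.029 to 1.55.

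FWA, whose imprinted expression is the best known of the family, had 0 counts in both WT libraries. It had 653 and 402 counts in jas-3, 582, 265 and 164 in DMSO, 22, 54 and 22 in Aza1 eM2, and 362, 170, 379 and 224 in Aza1 eM3. Every library of Aza1 eM2 lay below every library of jas-3, DMSO and Aza1 eM3, and above WT. In CPM, the count divided by a library size that the TMM method sets so that a typical gene is equal between libraries, FWA had 8.55 and 12.1 in jas-3, 3.48 to 11.1 in DMSO, 0.60 to 1.23 in Aza1 eM2 and 4.22 to 7.98 in Aza1 eM3. If counts were independent, a count of 0 would allow up to 3 counts per library, or 0.117 CPM at most in WT. The lowest library of each group was 73.3-fold (jas-3), 29.8-fold (DMSO), 5.18-fold (Aza1 eM2) and 36.2-fold (Aza1 eM3) higher than that limit. Both mates of a pair were mostly counted, so the limit is too low and these folds are too high as lower bounds. These limits cover counting error only.

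HDG3, the paternally expressed member, had 6 and 36 counts in WT and 19515 and 15652 in jas-3. DMSO had 22850, 10704 and 10960, Aza1 eM2 had 2378, 2823 and 3947, and Aza1 eM3 had 13975, 9567, 13151 and 8972. Aza1 eM2 again lay below all libraries of the 3 other jas-3 groups, but far above WT. HDG9, a maternally expressed member, also had Aza1 eM2 between WT and the rest: 8 and 2 counts in WT, 1764 and 1792 in jas-3, 2781, 1794 and 1504 in DMSO, 352, 497 and 539 in Aza1 eM2, and 1859, 1045, 2111 and 939 in Aza1 eM3. An ATREP3 element is annotated over most of HDG9, and 83.8% to 90.1% of the HDG9 count was also counted for that element in the 12 libraries with at least 100 HDG9 counts. Exon windows of HDG9 were nevertheless unique.

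HDG8, also maternally expressed, spread widely within groups. It had 3 and 11 counts in WT, 1691 and 341 in jas-3, 931, 162 and 268 in DMSO, 4, 20 and 19 in Aza1 eM2, and 313, 32, 506 and 87 in Aza1 eM3. The Aza1 eM2 libraries overlapped those of WT and lay below every library of the other groups. HDG10 had 0 and 2 counts in WT, 180 and 105 in jas-3, 166, 48 and 70 in DMSO, 2, 2 and 4 in Aza1 eM2, and 80, 16, 110 and 30 in Aza1 eM3, and so had the same pattern as HDG8 at a lower level. The ratio of its scaled counts to WT was 79.7 in jas-3 (95% exact counting interval 21.8 to 661) and 1.94 in Aza1 eM2 (0.386 to 18.7). Exact counting intervals, here and below, take counts as independent and are too narrow where both mates of a pair were counted.

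HDG11, which acts in trichomes, was present in WT with 98 and 80 counts. It had 577 and 520 in jas-3, 707, 359 and 400 in DMSO, 115, 217 and 136 in Aza1 eM2, and 407, 182, 390 and 199 in Aza1 eM3. Its WT libraries (3.11 and 3.19 CPM) and Aza1 eM2 libraries (3.18 to 4.93 CPM) touched, and the jas-3 (10.7 and 11.1 CPM) and DMSO libraries (8.06 to 13.5 CPM) lay above both.

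The epidermal identity genes were among the most abundant members in every group. ATML1 had 122 and 129 CPM in WT, 121 and 106 in jas-3, 98.9, 70.1 and 111 in DMSO, 115, 122 and 98.7 in Aza1 eM2, and 95.2, 89.4, 109 and 90.9 in Aza1 eM3. PDF2, its closest relative, had 144 and 152 CPM in WT, 77.4 and 79.3 in jas-3, 73.5, 68.5 and 114 in DMSO, 131, 145 and 145 in Aza1 eM2, and 79.2, 105, 93.8 and 94.3 in Aza1 eM3. The PDF2 libraries of Aza1 eM2 thus lay next to WT and above all libraries of the 3 other groups. HDG12 ranged from 8.16 to 18.8 CPM over all 14 libraries and HDG2 from 23.3 to 82.6, with the first jas-3 library the highest for HDG2. HDG2 overlaps a second gene (AT1G05220) in the files, so part of its count may belong to it.

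**Figure D2:**
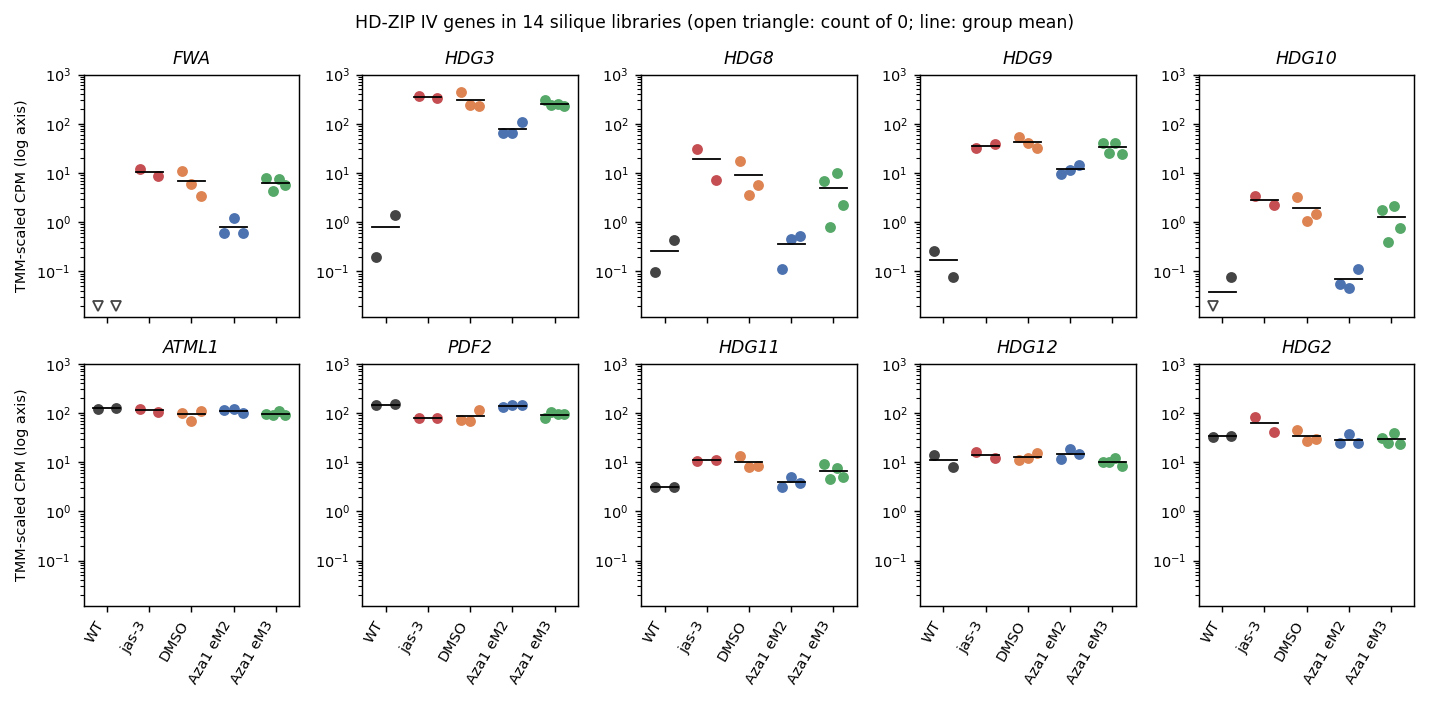
TMM-scaled CPM of the 10 genes in each of 14 libraries (y axis, log scale; x axis, the 5 groups; points, libraries; lines, group means; open triangles, a count of 0). FWA, HDG3, HDG8, HDG9 and HDG10 have their lowest non-WT values in Aza1 eM2, where FWA lies between 0.60 and 1.23 CPM, while ATML1 stays between 70.1 and 129 CPM.

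Untreated jas-3 siliques were set against WT to compare siliques with mixed seeds and siliques with diploid seeds. In all, 6 members rose and 1 fell in edgeR (quasi-likelihood test, p-values adjusted over 22359 genes by Benjamini-Hochberg, called under 0.05). The same test called 40.3% of all genes (23.7% higher and 16.5% lower). HDG3 rose by a log2 fold change of 8.81 ± 0.70 (SE, adjusted p = 3.17e-06), HDG9 by 7.63 ± 0.51 (1.08e-06), HDG8 by 6.24 ± 1.43 (0.00504) and HDG11 by 1.79 ± 0.35 (0.00213). FWA (adjusted p = 3.06e-05) and HDG10 (0.00133) rose by the bound and the ratio given above. PDF2 fell by 0.91 on the log2 scale (SE 0.21, adjusted p = 0.00527), and ATML1 (-0.14), HDG12 (0.35) and HDG2 (0.89) did not pass. The median log2 fold change of the 10 was 3.98, also with FWA at its bound, against 0.06 over all genes tested. Because WT counts of the rising genes are few, the sizes move with a single WT library: HDG3 was 7.96 without WT replicate 1 and 10.78 without WT replicate 2. Under stricter thresholds (log2 difference of 2 or more, adjusted p under 0.01) 5 members were higher (FWA, HDG3, HDG8, HDG9 and HDG10), against 7.08% of all genes.

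Calls in this comparison changed with the scaling and with a seed storage covariate. Storage shares of WT and jas-3 did not overlap, so the covariate fit cannot separate group from share here. With the total gene count as library size, an alternative chosen after seeing the data, the median of all genes moved to 0.85 on the log2 scale, PDF2 stood at -0.12 (adjusted p = 0.66) and ATML1 turned to 0.66 (0.047), HDG12 (1.13, 0.0192) and HDG2 (1.72, 0.00559) passed as higher. The scaling thus changed the call of 4 of the 10 members against WT, and the direction of ATML1. With the seed storage share as a covariate in the fit, FWA, HDG3 and HDG9 still passed, HDG3 at 8.35 (adjusted p = 0.000163) and HDG9 at 6.61 (4.9e-05), while HDG8 (0.96, 0.842), HDG10 (3.26, 0.25), HDG11 (0.42, 0.738) and PDF2 (-0.49, 0.626) did not.

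DMSO-treated jas-3 plants, the control for 5-Azacytidine, gave the same members against the same WT libraries. In this comparison 6 rose (FWA, HDG3, HDG8, HDG9, HDG10 and HDG11) and PDF2 fell, where 49.7% of all genes were called (27.1% higher and 22.6% lower). The log2 fold changes were 8.61 ± 0.69 (SE) for HDG3, 7.87 ± 0.50 for HDG9, 5.15 ± 1.37 for HDG8, 1.67 ± 0.33 for HDG11 and -0.79 ± 0.19 for PDF2, and HDG10 was higher by a ratio of 55.7 (95% exact counting interval 15.3 to 462). The same 5 members passed the stricter thresholds, against 7.44% of all genes. HDG8 lost its call without WT replicate 1 (adjusted p = 0.0672). The median was 3.41, or 3.28 with FWA at its bound, against 0.03 over all genes. With the seed storage covariate FWA, HDG3 and HDG9 passed as higher and HDG2 as lower (-1.38, adjusted p = 0.00492), while HDG8 (0.89, 0.709), HDG10 (3.19, 0.124), HDG11 (0.53, 0.414) and PDF2 (-0.43, 0.432) did not.

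Against untreated jas-3, no member passed: 0 of 10 in edgeR and 0 in DESeq2, with 1 (HDG2) at an unadjusted p under 0.05, where 1.6% of all genes were called (0.599% higher and 1% lower). The log2 fold changes ran from -1.09 (HDG8) to 0.24 (HDG9), with 95% intervals of -3.06 to 0.88 and -0.39 to 0.88. For FWA the interval was -1.56 to 0.38 and for HDG3 -1.14 to 0.76. A fall by 1 on the log2 scale lay inside the intervals of HDG8, FWA and HDG3 and outside that of HDG9.

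Aza1 eM2 was set against DMSO to see how the treated line differed from its control, and 6 members fell there and 1 rose, where 4.17% of all genes were called (3.65% lower and 0.523% higher). HDG10 fell by 4.74 on the log2 scale (SE 0.80, adjusted p = 0.00428), HDG8 by 4.62 (SE 1.05, 0.0264) and FWA by 3.06 (SE 0.46, 0.00272). HDG3 fell by 1.93 (SE 0.41, 0.0163), HDG9 by 1.81 (SE 0.27, 0.00225) and HDG11 by 1.34 (SE 0.28, 0.0154). PDF2 rose by 0.72 ± 0.17 (SE, 0.0329), and for every one of the 7 the groups did not overlap, which held for 9.53% of all genes in the higher and 11.2% in the lower direction. ATML1 (0.26), HDG12 (0.21) and HDG2 (-0.21) did not pass. The median of the 10 was -1.58, against 0.01 over all genes.

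The 3 calls for FWA, HDG9 and HDG10 held without each of the 6 libraries in turn and with the seed storage covariate, where FWA stood at -2.17 (adjusted p = 0.00357), HDG9 at -1.40 (0.0146) and HDG10 at -3.61 (0.0165). Storage shares of DMSO (10.7% to 22.8%) and Aza1 eM2 (21.96% to 31.0%) barely overlapped. The covariate fit thus separates group from share only weakly here. With that covariate HDG3 (-1.75, 0.0888), HDG8 (-2.70, 0.0923), HDG11 (-0.83, 0.0986) and PDF2 (0.57, 0.251) no longer passed. With the total gene count as library size the median of all genes moved to -0.25 and PDF2 no longer passed (0.47, 0.171). The count of 7 fell to 3 without DMSO replicate 1 or Aza1 eM2 replicate 1, and to 4 without Aza1 eM2 replicate 2 or 3. PDF2, the only member that rose, lost its call in 5 of the 6 left-out fits (edgeR adjusted p up to 0.175). HDG8 lost it in 4, and HDG3 and HDG11 in 3 each. At the stricter thresholds 2 members fell (FWA and HDG10), against 1.44% of all genes, and HDG9 met the p but not the fold.

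In the next generation, no member passed in Aza1 eM3 against DMSO: 0 of 10 in edgeR and 0 in DESeq2, with 1 (HDG11) at an unadjusted p under 0.05. Of all genes 0% were called by edgeR (1626 at an unadjusted p under 0.05) and 72 by DESeq2. The log2 fold changes ran from -0.87 (HDG8) to 0.13 (PDF2). The 95% interval was -0.94 to 0.70 for FWA and -1.03 to 0.56 for HDG3, which does not reach the decreases seen in Aza1 eM2. HDG11 stood at -0.62, with an interval of -1.17 to -0.07 that lay below 0. Intervals against DMSO overlapped between the generations for HDG11 (-1.95 to -0.74 in Aza1 eM2) and HDG8 (-2.55 to 0.82 and -6.91 to -2.33 in Aza1 eM2). Those of FWA, HDG3, HDG9 and HDG10 did not overlap.

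Set directly against Aza1 eM2, 4 members rose in Aza1 eM3, where 3.13% of all genes were called (2.77% higher and 0.362% lower). FWA rose by 2.94 ± 0.44 (SE, adjusted p = 0.00462), HDG10 by 4.15 ± 0.78 (0.0118), HDG3 by 1.70 ± 0.39 (0.0329) and HDG9 by 1.47 ± 0.26 (0.00792). HDG8 (3.75 ± 1.01, 0.0726) and PDF2 (-0.60 ± 0.16, 0.0679) did not pass, although their libraries did not overlap between the generations, as in 9.48% of all genes in the higher and 6.62% in the lower direction. HDG11 did not pass either (0.73 ± 0.26, 0.207), and its libraries overlapped. At the stricter thresholds 1 member (FWA) was higher, against 0.868% of all genes, and HDG9 again met the p alone. HDG3 lost its call whichever of the 7 libraries was left out (adjusted p = 0.0508 to 0.143) and HDG10 lost it without Aza1 eM2 replicate 1 or 2, which left 2 members, FWA and HDG9. With the seed storage covariate the 4 passed again, with FWA at 2.53 (0.000817), HDG3 at 1.59 (0.0393), HDG9 at 1.21 (0.0106) and HDG10 at 3.41 (0.0126).

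Aza1 eM2 was not at the WT level for all of them. FWA (adjusted p = 0.0019), HDG3 (6.68 ± 0.64 on the log2 scale, 1.39e-05) and HDG9 (6.06 ± 0.50, 4.95e-06) were higher than in WT, where 38.1% of all genes were called (22.4% higher and 15.8% lower). The same 3 passed the stricter thresholds, against 5.4% of all genes. HDG8 (0.53, 95% interval -2.80 to 3.86), HDG10 (0.89, -2.26 to 4.04) and HDG11 (0.33, -0.37 to 1.03) did not pass, and the wide intervals of the first pair of genes allow both a large rise and a large fall.

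**Figure D3:**
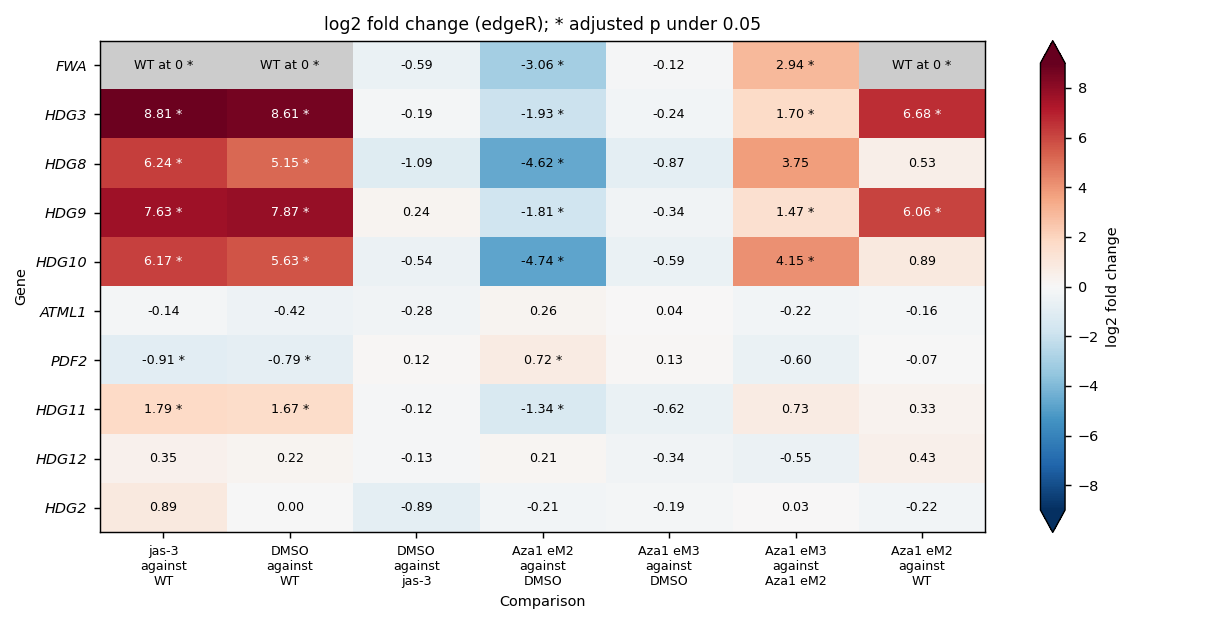
log2 fold changes of the 10 genes (rows) in 7 comparisons (columns), red higher and blue lower in the first-named group, with a star where the adjusted p is under 0.05. Grey cells mark FWA against WT, where both WT libraries are at 0. The columns jas-3 against WT, DMSO against WT and Aza1 eM2 against DMSO hold 7 stars each, and DMSO against jas-3 and Aza1 eM3 against DMSO hold none.

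The seed storage share moved with these genes across groups, and its part in the differences was not tested. WT shares lay above those of every other group. Against WT the covariate fits thus reach beyond the shares of the other groups, and group and share cannot be told apart. Aza1 eM2 replicate 2 had 21.96% storage counts, between DMSO replicates 2 (19.7%) and 3 (22.8%). FWA was 1.23 CPM in that Aza1 eM2 library and 5.95 and 3.48 in the DMSO pair, HDG3 64.1 against 240 and 232, HDG9 11.3 against 40.3 and 31.9, HDG8 0.45 against 3.64 and 5.68, and HDG10 0.045 against 1.08 and 1.48. PDF2 was 145 CPM against 68.5 and 114. These are values of single libraries, with no test.

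**Figure D4:**
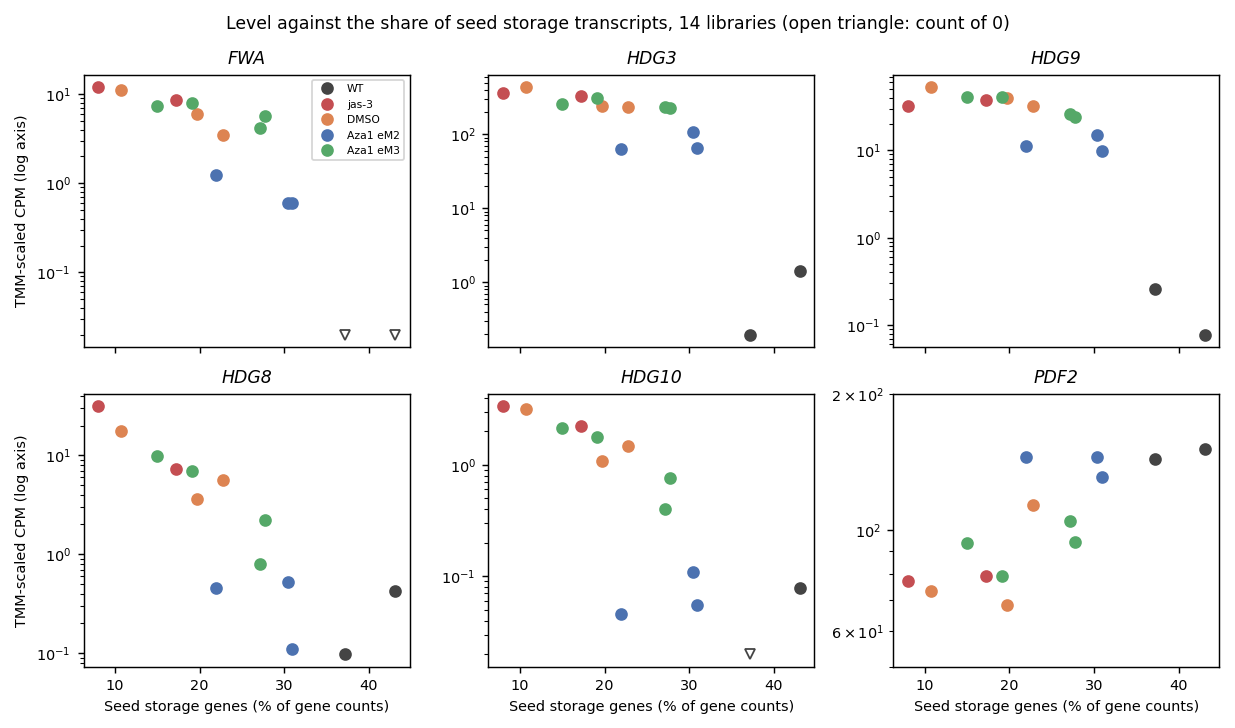
TMM-scaled CPM of FWA, HDG3, HDG9, HDG8, HDG10 and PDF2 (y axes, log scale) against the percentage of gene counts on 9 seed storage genes (x axis), with 1 point per library coloured by group and open triangles for a count of 0. WT lies at 37.2% to 43.1%, and the Aza1 eM2 library at 21.96% lies below the DMSO libraries at 19.7% and 22.8% for all genes drawn except PDF2.

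Over the 14 libraries the members fell into sets that varied together, as a description over libraries that share groups and seed storage shares. FWA, HDG3 and HDG9 had Pearson r of 0.94 (FWA and HDG3), 0.95 (FWA and HDG9) and 0.96 (HDG3 and HDG9) on log2 CPM. HDG8, HDG10 and HDG11 had 0.97 (HDG8 and HDG10), 0.94 (HDG8 and HDG11) and 0.93 (HDG10 and HDG11). Links between these sets ran from 0.68 (HDG8 and HDG9) to 0.88 (FWA and HDG10), so the sets are not sharply separate. PDF2 ran against both, from -0.69 with HDG3 to -0.89 with HDG10, while HDG12 had r between -0.08 and 0.19 with the 6. Among 22344 genes outside the family, those most like FWA were AT1G65990, AT1G26798 (both r = 0.99) and emb2204 (0.99), and all 3 had 0 counts in both WT libraries. Those most like HDG3 were AT5G05030, AT5G63230 and AT2G19802, each at r of 0.99 or above, with 2 to 50 counts in WT.

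**Figure D5:**
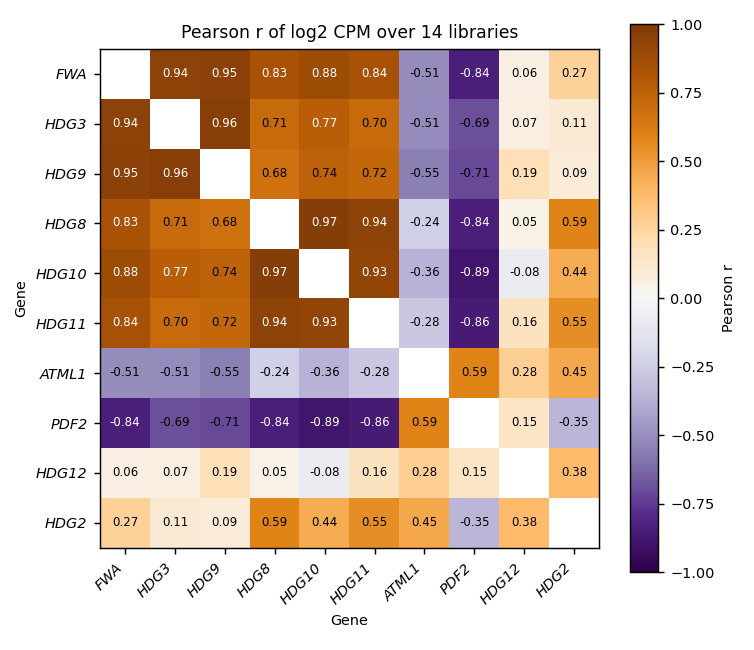
Pearson r of log2 CPM between the 10 genes over 14 libraries (colour and printed value; rows and columns, genes). FWA, HDG3 and HDG9 form one block at 0.94 to 0.96 and HDG8, HDG10 and HDG11 another at 0.93 to 0.97, and PDF2 is negative with both.

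Among the other 6 HD-ZIP IV genes, HDG4 had too few counts to be tested. Of the 5 tested, 3 rose in jas-3 against WT, where 23.7% of all genes were called higher. They were HDG7 (log2 fold change 2.69, adjusted p = 0.00034), ANL2, which acts in anthocyanin accumulation and root cell identity (0.55, 0.0104), and HDG5 (0.55, 0.0147). HDG5 also rose in Aza1 eM2 against DMSO (0.53, 0.0329), the opposite direction to FWA. GL2, which controls trichomes, root hairs and seed coat mucilage, was the most abundant of the 6 with an RPKM of 42.9 ± 9.65 in WT (n = 2) and 38.8 ± 6.23 in Aza1 eM2 (n = 3), and, named after its values were seen, did not pass in either comparison. The median log2 fold change of the 5 was 0.55 in jas-3 against WT and 0.00 in Aza1 eM2 against DMSO.

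Genes that make the epidermis and cuticle, where ATML1 and PDF2 act were counted as a list of 15. Of these, 2 rose and 4 fell in jas-3 against WT (median -0.49), where 23.7% of all genes were called higher and 16.5% lower. In Aza1 eM2 against DMSO 0 passed (median 0.29, edgeR), with 4 at an unadjusted p under 0.05, as were 3876 of all 22359 genes tested. PDF1, a gene of the outer cell layer, fell by 2.58 (SE 0.25, adjusted p = 1.30e-05) in jas-3 against WT and stood at 0.73 (0.0618) in Aza1 eM2 against DMSO. ALE1, a protease made in the endosperm that is needed for the embryo cuticle, rose by 5.95 ± 0.31 (1.99e-07) in jas-3 against WT and stood at -0.05 (0.923) in Aza1 eM2 against DMSO.

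A further 6 imprinted genes, taken for comparison with results on these data known, gave the same directions for 4 of them. All 6 rose in jas-3 against WT, where 23.7% of all genes were called higher. In Aza1 eM2 against DMSO, where 3.65% of all genes were called lower, 4 fell: PHE1, a paternally expressed MADS-box gene (fell by 4.98, adjusted p = 0.00412), AT5G62110 (2.79, 0.00127), ADM, a paternally expressed gene (2.15, 0.00112), and MYB3R2 (1.03, 0.0217). The maternally expressed Polycomb genes MEA (0.39, 0.58) and FIS2 (-0.34, 0.565), the 2 others, did not pass there. PHE1 and ADM had 0 counts in both WT libraries, as FWA did, and PHE1 had 22, 48 and 8 in Aza1 eM2. The same 4 rose in Aza1 eM3 against Aza1 eM2.

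Of 12 endosperm markers, 8 rose and 1 fell in jas-3 against WT, where 23.7% of all genes were called higher and 16.5% lower. In Aza1 eM2 against DMSO 1 of 12 fell, PHE1, which is also on the imprinted list. The gene that fell in jas-3, named after its value was seen, was EPR1, an extensin-like gene (fell by 2.23, adjusted p = 0.00584). ZOU, an endosperm transcription factor, rose by 4.91 (8.20e-07) in jas-3 against WT and stood at -0.54 (0.182) in Aza1 eM2 against DMSO. The summed CPM of the 12 was 10923 to 12242 in WT, 2718 to 3414 in jas-3, 3104 to 5906 in DMSO, 4884 to 6863 in Aza1 eM2 and 3072.2 to 9364 in Aza1 eM3. EPR1 alone held 99.2% to 99.7% of these counts in WT and 75.7% to 93.3% in the other libraries. Without it, a sum taken after its values were seen, the range was 39.0 to 90.5 CPM in WT, 576 to 661 in jas-3, 420 to 750 in DMSO, 522 to 566 in Aza1 eM2 and 626 to 720 in Aza1 eM3. In this sum WT lay below all other groups and Aza1 eM2 within the range of DMSO. Outside WT it was mostly RGP3, AT1G71250 and GH9C1 (16960, 9638 and 6706 counts in DMSO replicate 1). It thus does not describe markers with few counts. The median log2 fold change of the 12 in Aza1 eM2 against DMSO was -0.25, against 0.01 over all genes. The part of these markers in the members' differences was not tested. In jas-3 against WT, 2 of 7 embryo markers rose, 4 of 8 seed coat markers rose and 1 fell, 1 of 6 fruit wall markers rose and 3 fell, and all 9 seed storage genes fell (median -2.62). The rises of embryo and fruit wall markers lie near the 23.7% of all genes called higher there. In Aza1 eM2 against DMSO 0 genes of these 4 lists passed by edgeR, with 1 embryo, 1 seed coat, 0 fruit wall and 3 seed storage genes at an unadjusted p under 0.05. Of all 22359 genes tested, 3876 were at such an unadjusted p.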

How the data were processed

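Total RNA of siliques was sequenced by the authors, whose processing notes name STAR and the TAIR10 genome. The deposited tables give, for each library, a count of reads per feature (27394 genes, with transposable elements and intergenic regions beside them), and 73.7% to 79.0% of gene counts from 1 to 20 were even, so both mates of a pair were mostly counted. Use of strand in counting was not given in the sources used here. Genes were tested on the deposited counts with edgeR 4.0.16 in R 4.3.3 (quasi-likelihood test, two-sided, filterByExpr, TMM scaling, all 14 libraries in one fit, Benjamini-Hochberg adjustment over 22359 genes, pass at an adjusted p under 0.05), after a check on simulated counts. The stricter thresholds follow the methods of the study, which require the fold on the log2 scale, while its results text names the same size as a plain fold change. DESeq2 1.42.0, other scalings and filters, a replicate block, a seed storage covariate, separate fits of 2 groups and leaving out each library were tried. RPKM was computed with the union of RefSeq exons and the total gene count, and 26895 of the 27394 genes matched that annotation. Correlations used log2 CPM with a prior count of 2. All replicate pairs differed beyond sampling noise (chi-square per degree of freedom 33.7 to 255). The labels call the WT, jas-3 and DMSO libraries biological replicates, and the study describes those of Aza1 eM3 as different siblings. Separate plants are not stated for the other libraries, so p-values measure the spread between these libraries. Named were all 10 members, other family members that passed, HDG4, GL2, the 6 imprinted genes, some marker genes, and the 3 genes most like FWA and HDG3. The marker genes named are not always those with the smallest adjusted p of their list. In jas-3 against WT, RGP3 (endosperm, log2 fold change 6.94, edgeR adjusted p = 9.90e-07) was not described above. Nor were LEC1 (embryo, 5.16, 9.90e-07) and GSO1 (epidermis, -1.36, 0.000379). The members and lists were chosen with earlier results of these data known. Protein sequences were not used here.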

Additional observations from a re-analysis of the deposited data

Results flagged for a closer look

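For 4 members the effect in Aza1 eM3 against DMSO differed from that in Aza1 eM2 against DMSO, by the direct test between the generations with edgeR (adjusted p under 0.05). The difference was 2.94 on the log2 scale for FWA, 1.70 for HDG3, 1.47 for HDG9 and 4.15 for HDG10, each higher in Aza1 eM3. In all 4 the 4 libraries of Aza1 eM3 lay above the 3 of Aza1 eM2, as in 9.48% of all genes. HDG3 lost its call whichever of the 7 libraries was left out, and HDG10 lost it for 2 of them. Both effects share the DMSO libraries, which cancel in the difference. No library stood out from its group by Dixon's criterion, which could be applied to the 4 libraries of Aza1 eM3 alone.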

How the results depend on the processing

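The counts of members that passed depended on whether genes with few reads in any library were tested. A minimum of 10 counts in every one of the 14 libraries dropped FWA, HDG3, HDG8, HDG9 and HDG10. FWA, HDG3 and HDG9 were dropped through WT alone, also in comparisons without WT. In Aza1 eM2 HDG3 had 2378 to 3947 counts and HDG9 352 to 539. For these 3 genes the filter thus says nothing on comparisons without WT. Of the 5 members left to test, 2 passed for jas-3 against WT, 2 for DMSO against WT, 1 for Aza1 eM2 against DMSO, 0 for Aza1 eM3 against Aza1 eM2 and 0 for Aza1 eM2 against WT. The seed storage covariate left 3, 4 and 3 in the first 3 of these. The stricter thresholds left 2 for Aza1 eM2 against DMSO and 1 for Aza1 eM3 against Aza1 eM2. Leaving out each library in turn gave 7 to 8 for jas-3 against WT, 6 to 8 for DMSO against WT, 3 to 7 for Aza1 eM2 against DMSO, 2 to 4 for Aza1 eM3 against Aza1 eM2, 3 for Aza1 eM2 against WT, and 0 for both other comparisons. The shares of all genes given above belong to the main edgeR fit. Counts of members under other fits in this section come without such shares, so they cannot be set against a background.

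The alternatives were run for every log2 fold change. A set of 36 held all members in jas-3 against WT and Aza1 eM2 against DMSO, and mostly calls elsewhere. Of its 493 values, 435 kept direction and call, 44 lost the call, 8 gained it and 6 changed direction. In jas-3 against WT, ATML1 became 0.66 with total gene counts, and HDG12 and HDG2 became -0.38 and -0.86 with the covariate. In Aza1 eM2 against DMSO, HDG12 became -0.023 with total gene counts, HDG2 became 0.39 with the covariate, and HDG2 ran from -0.45 to 0.047 over left-out libraries. None of these 3 genes passed in either comparison as reported. The 34 other fold changes, none called as reported, include all of DMSO against jas-3 and Aza1 eM3 against DMSO. Of their 491 values, 444 kept direction and call, 5 gained the call and 42 changed direction. The cause was not tested. DESeq2 called 8, 8, 0, 7, 0, 6 and 3 members in the 7 comparisons, in the order in which they are described above.

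Same-numbered libraries were not treated as pairs in the main fit. Correlations of same-numbered deviations ran from -0.26 to 0.53, the highest for replicate 1 of DMSO and jas-3. With so few libraries per group they cannot settle whether numbers mark pairs. With a replicate block, 7, 7, 0, 6, 0, 3 and 3 members passed in the same order, HDG3 being lost in Aza1 eM2 against DMSO (adjusted p = 0.0693) and in Aza1 eM3 against Aza1 eM2 (0.11). RPKM moved by 0.45 to 0.92 times with gene span as length, and by 0.80 to 1.59 times with TMM library sizes. Depth limits the values of FWA, HDG8, HDG9 and HDG10 in WT, at 0 to 11 counts, and of HDG8 and HDG10 in Aza1 eM2, at 2 to 20.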
